A study of Mus musculus with 6 samples.

Results

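The 10 genes described here are linked to the peroxisome proliferator-activated receptors (PPARs) and to the uptake, storage and burning of fatty acids in mouse ovarian cancer cells: Angptl4, Ucp2, Acot1, Acsbg1, Fabp4, Lpl, Pparg, Ppard, Cpt1a and Pdk4. They were taken by symbol from a deposited table of 35275 Ensembl genes, in which all 10 were found. They were selected on their measured FPKM, by the difference between the groups and by how the library numbered 3 of each group differed from 1 and 2, so both contrasts are given as descriptions. Where a member's call in the fit over all genes is named, nothing is read from it. Messenger RNA came from ID8-KMF cells, an ovarian cancer line obtained from ID8 cells of C57Bl6/J origin by passage in mice, grown subconfluent on dishes seeded with Matrigel. All 6 libraries are of Rgnef-/- cells, which lack the gene (Arhgef28) of a guanine nucleotide exchange factor. In 3 of them a lentivirus had put back Rgnef fused to GFP (GFP-Rgnef libraries). The other 3, called knockout libraries, came from the Rgnef-/- cells without it. The lentivirus and the tag came with Rgnef and cannot be told apart from it, and unedited cells were not analysed here. The labels name no separate cultures behind the 3 libraries of a group, so a p-value here reflects how far libraries scattered and no more, and that scatter may be technical. In bulk RNA, fewer cells of a kind and less RNA per cell cannot be told apart.

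Values are FPKM, fragments scaled by gene length and by the reads of the library. Library depth, worked out from the steps between low values, was 15898965 to 17977069 reads. Arhgef28 stood at 50.02 to 57.2 FPKM in the GFP-Rgnef libraries and at 0.110 to 0.134 in the knockout libraries, as the labels say. Of the markers of ovarian surface epithelium and mesothelium, Krt8, Krt18, Krt19, Wt1, Msln and Upk3b were expressed in all 6 libraries, while Epcam and Krt7 stayed below 0.5 FPKM. This list held 11 markers, of which 7 were tested, with 0 called higher and 1 called lower in the knockout. Of 9 adipocyte markers 8 had a mean below 0.5 FPKM, Plin1, Cidec, Lep and Adrb3 were listed at 0 in every library, and their sum was 2.33 to 3.61 FPKM in GFP-Rgnef and 2.10 to 4.18 in knockout libraries. Of 8 endothelial markers Tek alone was above that level, at 85.7 to 145.8 FPKM, while Kdr was listed at 0. The summed 8 fibroblast markers, 4 of them with a mean below 0.5 FPKM, were 65.9, 71.2 and 49.6 FPKM in GFP-Rgnef libraries 1, 2 and 3. In knockout libraries 1, 2 and 3 the sum was 44.4, 40.9 and 39.6, without overlap. Dcn had the highest mean of the 8 and, alone of 4 tested, was called lower in the knockout. Col1a2 was higher in the knockout library of each number, at 0, 0 and 2.45 FPKM with GFP-Rgnef and 0.173, 0.0768 and 5.83 without. The sum therefore does not stand for each fibroblast marker. Their part in the differences of the lipid genes was not tested.

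PPARs are nuclear receptors that bind fatty acids and their derivatives, pair with retinoid X receptors and switch on genes for handling lipid. PPAR gamma is best known from fat cells, where it drives storage, while PPAR delta is found in most tissues and favours the burning of fat. Angptl4, Pdk4, Cpt1a, Fabp4, Lpl, Acot1 and Ucp2 are all described as genes that one or another of these receptors can induce.

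Promoter sequences were at hand in RefSeq (GRCm38.p6) for 7 of the 10 genes, Ucp2, Acot1, Acsbg1, Pparg, Ppard, Cpt1a and Pdk4, with 9 start sites among them. Of these, 4 are shown as the 250 bases before the start site. Ucp2 and Acsbg1 were among the genes highest in library 3 of both groups, Pdk4 had the largest fitted difference between the groups, and Cpt1a carries a copy of AGGTCA, the hexamer of which PPAR sites are built. The windows are chr7:100493108-100493357 (plus strand) for Ucp2, chr9:54661886-54662135 (minus strand) for Acsbg1, chr6:5496279-5496528 (minus strand) for Pdk4 and chr19:3323051-3323300 (plus strand) for Cpt1a. Each reads from 5′ to 3′ along its gene, and capitals mark every match to AGGTCA or to TGACNNNGC, the core of the antioxidant response element, on either strand.
Ucp2: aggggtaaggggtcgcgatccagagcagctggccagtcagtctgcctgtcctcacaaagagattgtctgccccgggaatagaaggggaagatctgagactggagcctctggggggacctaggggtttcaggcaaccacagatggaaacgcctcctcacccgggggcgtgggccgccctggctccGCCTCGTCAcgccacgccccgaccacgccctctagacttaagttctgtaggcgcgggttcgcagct
Acsbg1: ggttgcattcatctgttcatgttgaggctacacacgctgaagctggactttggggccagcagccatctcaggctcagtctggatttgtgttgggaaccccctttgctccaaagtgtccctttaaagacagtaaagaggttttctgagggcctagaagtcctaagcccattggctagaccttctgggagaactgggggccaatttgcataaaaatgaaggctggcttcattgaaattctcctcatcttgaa
Pdk4: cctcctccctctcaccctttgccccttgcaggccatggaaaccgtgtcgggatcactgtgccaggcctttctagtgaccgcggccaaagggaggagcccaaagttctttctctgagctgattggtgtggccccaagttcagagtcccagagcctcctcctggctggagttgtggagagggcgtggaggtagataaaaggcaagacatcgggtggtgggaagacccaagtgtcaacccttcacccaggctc
Cpt1a: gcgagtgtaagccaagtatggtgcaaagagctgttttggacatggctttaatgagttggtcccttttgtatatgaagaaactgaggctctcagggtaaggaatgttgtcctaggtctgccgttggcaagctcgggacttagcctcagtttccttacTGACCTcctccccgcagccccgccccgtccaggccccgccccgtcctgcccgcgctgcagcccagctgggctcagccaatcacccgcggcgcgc
The PPAR site in its ideal form, AGGTCANAGGTCA, which contains the hexamer, was searched on both strands too and occurs in 11 of 32851 such windows in the genome (0.0335%) and in 0 of the 9 windows of these genes. AGGTCA alone occurred in 3 of the 9 windows, 2 of Pparg and 1 of Cpt1a, where it begins 94 bases before the start site, and in 14.0% of all windows. TGACNNNGC occurred in 1 window of Ucp2, beginning 66 bases before the start, and in 1 of Pparg, against 10.2% of all windows. The Acsbg1 and Pdk4 windows held no match. A match is a string of letters and not a shown binding site. The lack of the ideal form in 9 windows says little, since so few of all windows hold it and only 250 bases were searched.

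By mean FPKM over the 6 libraries, a level per length, the order was Pdk4 (50.7), Cpt1a (33.4), Ppard (30.3), Ucp2 (19.7), Acot1 (14.5), Angptl4 (11.96), Acsbg1 (6.56), Lpl (5.004), Fabp4 (0.548) and Pparg (0.358). Most neighbours in this order were not separated beyond the spread of the libraries. Angptl4 lay above Acsbg1, and Lpl above Fabp4, in 6 of 6 libraries, while Pdk4 lay above Cpt1a in 3 of 6, Cpt1a above Ppard in 3 of 6 and Acsbg1 above Lpl in 2 of 6. For Acsbg1 the length behind the level was 932 bases, the mean over its annotated transcripts, short ones included, so levels compared between genes also depend on their annotation. For the other 9 genes that length was not matched, and the reads given below are the fewest whole reads that fit their values.

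**Figure D1:**
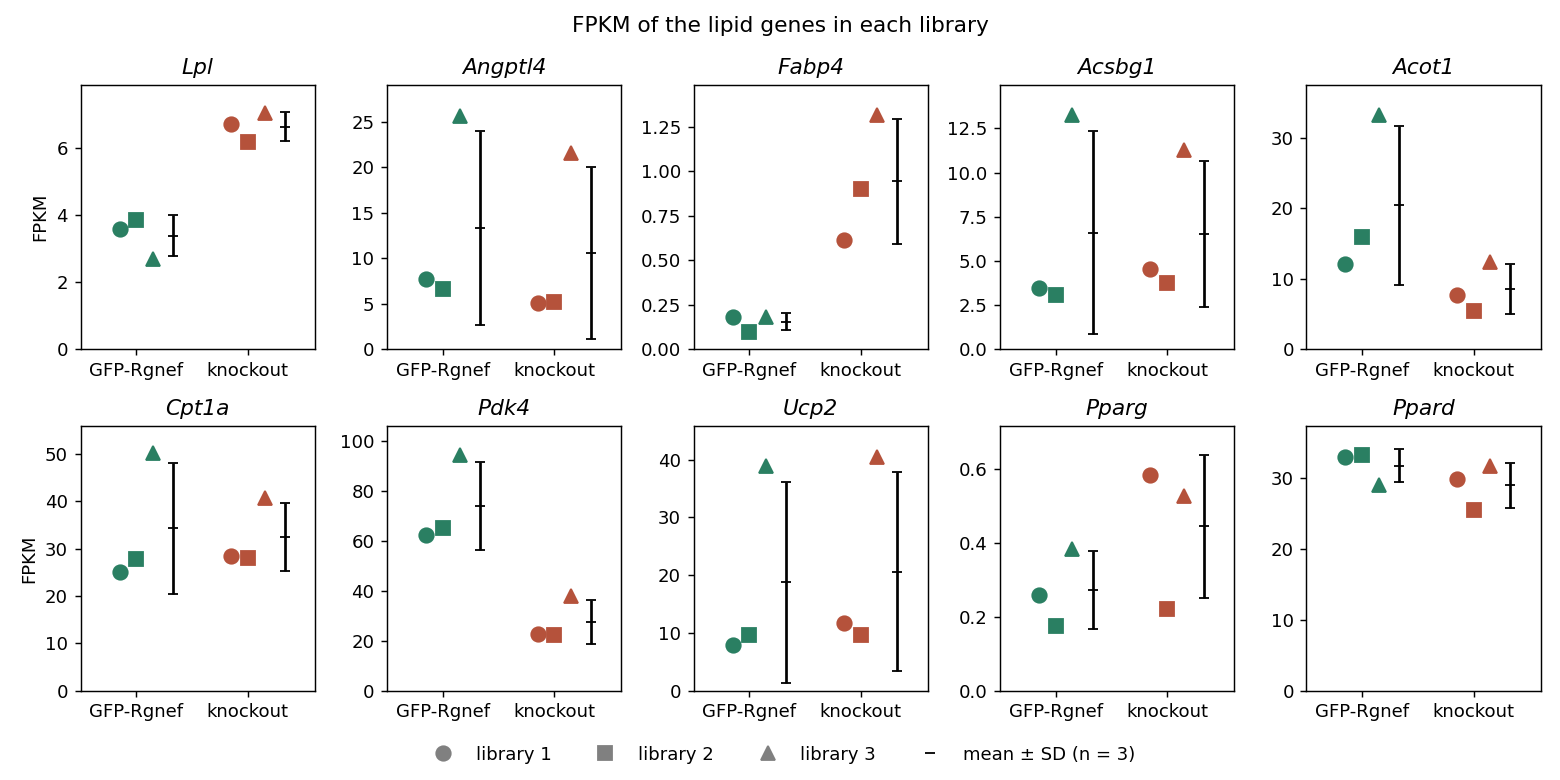
FPKM (vertical axes, each from 0) of the 10 genes in the 3 GFP-Rgnef and the 3 knockout libraries, with circles, squares and triangles for libraries 1, 2 and 3 and a bar for the mean ± SD (n = 3). The triangles stand far above the other symbols in both groups for Angptl4, Ucp2 and Acsbg1, and Pdk4, Lpl and Fabp4 separate the groups.

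Ppard and not Pparg was the PPAR gene expressed at a substantial level. Ppard (ENSMUSG00000002250, GRCm38 chromosome 17, 28232700 to 28301474, plus strand) encodes PPAR delta. It had 32.9, 33.2 and 29.0 FPKM in GFP-Rgnef libraries 1, 2 and 3 and 29.7, 25.4 and 31.6 in knockout libraries 1, 2 and 3. The groups overlapped, and the fitted difference, knockout minus GFP-Rgnef here and throughout, was -0.13 (SE 0.10) on the log2(FPKM + 1) scale. Pparg (ENSMUSG00000000440, chromosome 6, 115360951 to 115490399, plus strand) encodes PPAR gamma. It stood at 0.259, 0.173 and 0.383 FPKM with GFP-Rgnef and at 0.583, 0.222 and 0.527 in the knockout, which is 5 to 19 reads per library. Its mean was below the 0.5 FPKM needed for the test, and the ratio of summed reads, 42 against 25, was 1.62 with a 95% exact counting interval of 0.963 to 2.77. Ppara, the third receptor gene and no member of the 10, had 0.038 to 0.125 FPKM.

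Lpl and Angptl4 act outside the cell. Lpl (ENSMUSG00000015568, chromosome 8, 68880491 to 68907448, plus strand) encodes lipoprotein lipase, which frees fatty acids from circulating triglyceride. Its values were 3.59, 3.85 and 2.69 FPKM with GFP-Rgnef and 6.71, 6.16 and 7.02 in the knockout. Every knockout library was above every GFP-Rgnef library. The means were 3.38 ± 0.607 and 6.63 ± 0.436 FPKM (SD, n = 3), a ratio of 1.96, and the fitted difference was 0.81 (SE 0.12).

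Angptl4 (ENSMUSG00000002289, chromosome 17, 33773750 to 33781830, minus strand) encodes a secreted protein that inactivates lipoprotein lipase. It had 7.68, 6.64 and 25.7 FPKM in GFP-Rgnef libraries 1, 2 and 3 and 5.09, 5.18 and 21.5 in knockout libraries 1, 2 and 3. Library 3 was the high one in both groups, by 3.58-fold over the mean of 1 and 2 with GFP-Rgnef and 4.19-fold without, and the groups overlapped. The fitted difference was -0.35 (SE 0.60), while the differences between libraries of the same number were -0.51, -0.30 and -0.24. Without the libraries numbered 3, the difference was -0.41.

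Fabp4, Acsbg1 and Acot1 handle fatty acids inside the cell. Fabp4 (ENSMUSG00000062515, chromosome 3, 10204088 to 10208576, minus strand) encodes a fatty acid carrier of fat cells, macrophages and capillary endothelium. It had 0.185, 0.0987 and 0.182 FPKM with GFP-Rgnef and 0.611, 0.902 and 1.31 in the knockout, from 1 to 2 reads and 7 to 14 reads per library. All knockout libraries were above all GFP-Rgnef libraries, at a very low level in both. Over the group the reads were 5 and 31, a ratio of 5.97 with a 95% exact counting interval of 2.30 to 19.7. As for Pparg, the interval covers the counting error of the pooled reads and not the scatter between libraries. Fabp4 was chosen with this contrast known, so nothing is read from where the interval lies. Its fitted difference was 0.73 (SE 0.16), and its call in the fit over all genes was lost without GFP-Rgnef 1, GFP-Rgnef 2 or knockout 2.

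Acsbg1 (ENSMUSG00000032281, chromosome 9, 54604877 to 54661870, minus strand) encodes an acyl-CoA synthetase, which activates long fatty acids. It had 3.47, 3.10 and 13.2 FPKM with GFP-Rgnef and 4.54, 3.76 and 11.3 in the knockout. Library 3 was 4.03-fold and 2.72-fold above the mean of the other libraries of its group. The groups overlapped, with a fitted difference of 0.10 (SE 0.51). Of the tested genes on chromosome 9, 36.6% were called higher in the knockout, with a median of 0.28, and once chromosome medians were removed the Acsbg1 difference was -0.19.

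Acot1 (ENSMUSG00000072949, chromosome 12, 84009490 to 84018371, plus strand) encodes a cytosolic thioesterase that splits acyl-CoA back into fatty acid. Its values were 12.1, 15.9 and 33.3 FPKM with GFP-Rgnef and 7.67, 5.45 and 12.4 in the knockout. Within each number the knockout library was the lower one, by -0.60, -1.39 and -1.35, yet the groups overlapped because knockout 3 lay just above GFP-Rgnef 1. The means were 20.4 ± 11.3 and 8.51 ± 3.55 FPKM (SD, n = 3) and the fitted difference was -1.11 (SE 0.37). The difference was -1.40 without knockout 3 and -0.996 without both libraries numbered 3. Acot1 has close relatives in the neighbouring Acot genes, and how reads were shared among them was not examined, so its reads and theirs are uncertain.

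Cpt1a, Pdk4 and Ucp2 govern what mitochondria burn. Pdk4 (ENSMUSG00000019577, chromosome 6, 5483351 to 5496309, minus strand) encodes a kinase that shuts the pyruvate dehydrogenase complex and so spares glucose in favour of fat. It had 62.4, 64.9 and 94.2 FPKM with GFP-Rgnef and 22.6, 22.3 and 37.8 in the knockout. The lowest GFP-Rgnef library was above the highest knockout library. The means were 73.8 ± 17.7 and 27.6 ± 8.84 FPKM (SD, n = 3), so GFP-Rgnef libraries were 2.68-fold higher, and the fitted difference was -1.41 (SE 0.22). Within numbers 1, 2 and 3 the differences were -1.43, -1.50 and -1.30.

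Cpt1a (ENSMUSG00000024900, chromosome 19, 3322334 to 3385733, plus strand) encodes the liver form of carnitine palmitoyltransferase 1, which admits long fatty acids to mitochondria. It had 24.96, 27.8 and 50.2 FPKM with GFP-Rgnef and 28.5, 28.0 and 40.7 in the knockout. Library 3 was again the highest of each group, by 1.90-fold and 1.44-fold over the mean of the others. The groups overlapped, and the fitted difference was -0.03 (SE 0.25).

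Ucp2 (ENSMUSG00000033685, chromosome 7, 100493337 to 100502020, plus strand) encodes a carrier of the mitochondrial inner membrane, related to the uncoupling protein of brown fat. Its values were 7.91, 9.56 and 38.8 FPKM with GFP-Rgnef and 11.7, 9.64 and 40.4 in the knockout, from 162 to 815 reads. In library 3 it was 4.44-fold above the mean of the others with GFP-Rgnef and 3.78-fold above it without. The groups overlapped almost wholly, and the fitted difference was 0.19 (SE 0.64). Of the tested genes on chromosome 7, 28.8% were called higher in the knockout, with a median of 0.24, and after chromosome medians were removed the Ucp2 difference was -0.056.

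**Figure D2:**
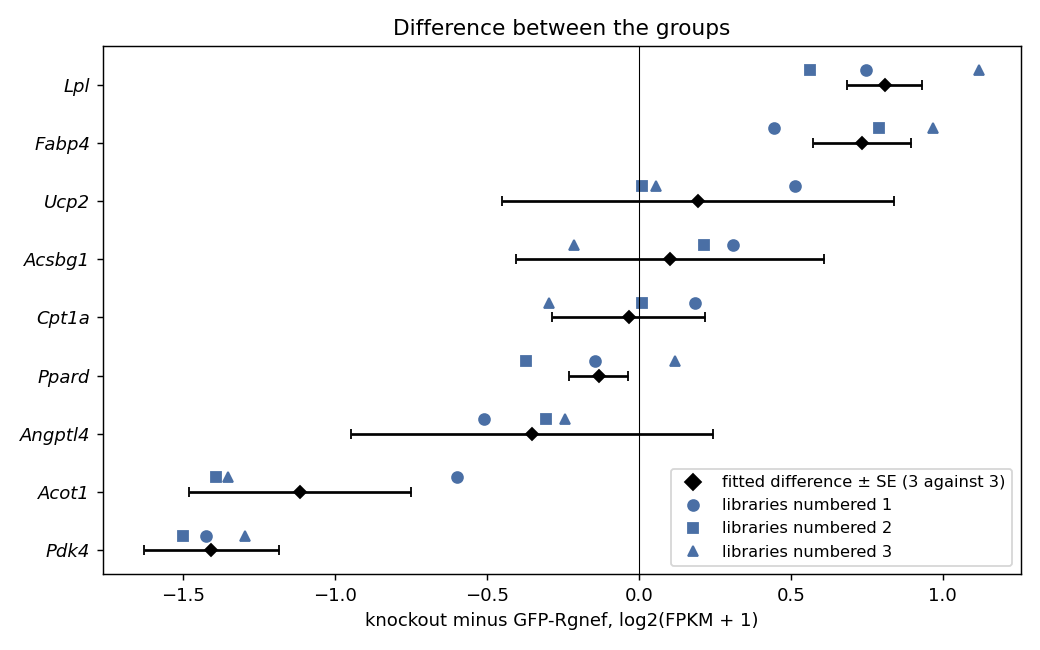
Knockout minus GFP-Rgnef on the log2(FPKM + 1) scale (horizontal axis) for the 9 genes tested, with black diamonds for the fitted difference ± SE and blue symbols for the difference between the libraries of number 1, 2 and 3. The 3 symbols of Pdk4 lie between -1.50 and -1.30, and those of Lpl between 0.56 and 1.12, while the bars of Ucp2, Angptl4 and Acsbg1 are wide and cross 0.

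In the fit over all genes, limma with trend on log2(FPKM + 1), 3 of the 9 tested members were called at an adjusted p below 0.05: Lpl and Fabp4 higher and Pdk4 lower in the knockout. Over all 11500 genes tested, 13.4% were called, 8.04% as higher and 5.34% as lower. The libraries of the groups did not overlap for the same 3 of 9 members, and for 33.4% of all genes. Since the members were chosen with this contrast known, nothing is read from these counts. Fabp4, with group means of 0.155 (GFP-Rgnef) and 0.942 FPKM (knockout), also reached the mean of 0.5 FPKM needed for the test through its knockout libraries alone. Such a filter favours a rise.

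The libraries numbered 3 stood apart in both groups, along the second principal component of all genes, which held 25.2% of the variance. Angptl4, Ucp2 and Acsbg1 were higher in library 3 than in the mean of 1 and 2 by at least 1 on the log2(FPKM + 1) scale in both groups. Over all 11500 genes 13, or 0.113%, had such a difference, and 11, or 0.0957%, were lower by as much. For Ucp2 the difference was 2.04 with GFP-Rgnef and 1.83 without, for Angptl4 it was 1.71 and 1.88, and for Acsbg1 1.73 and 1.26. Ranked by the smaller of their 2 differences, Ucp2 was number 1, Angptl4 number 3 and Acsbg1 number 8 of the 13. The others were the collagen genes Col1a2 and Col3a1, the prostaglandin synthase gene Ptgs2, the mitochondrial genes mt-Nd3 and mt-Atp6, and Ptn, Prl2c2, Tnnt2, Rpl38-ps2 and Gm42418. Gm42418 had 33.3, 41.4 and 87.2 FPKM in GFP-Rgnef libraries 1, 2 and 3 and 47.2, 54.6 and 178.5 in knockout libraries 1, 2 and 3. These genes were named after their values were seen.

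Acot1 had 1.20 and 0.84, Cpt1a 0.91 and 0.51 and Pdk4 0.56 and 0.73 by the same measure, all above the upper quartile of all genes, which was 0.16 with GFP-Rgnef and 0.15 without. Ppard had -0.18 and 0.19, Lpl -0.35 and 0.11, and Fabp4 0.05 and 0.40, so these 3 were not high in library 3 of both groups. In all, library 3 was the highest of its group in both groups for 6 of the 9 tested members, Angptl4, Ucp2, Acsbg1, Acot1, Cpt1a and Pdk4, and for 26.0% of all genes. These counts describe the contrast that chose the members and carry no test, and the labels do not say what the number marks.

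Other measures of library 3 are given beside these. Its implied depth was 17274843 reads with GFP-Rgnef and 16743473 without, within the range of the other 4 libraries. The share of FPKM in mitochondrial genes was 1.38% and 1.11%, next to 1.28% and 1.33% in GFP-Rgnef and 1.20% and 1.16% in knockout libraries 1 and 2. The summed ovarian surface and mesothelial markers were lower in library 3, at 1657 FPKM against 2465 and 2417 with GFP-Rgnef and at 1548 against 2483 and 2403 without, with Krt19 at 794 and 679 FPKM in library 3 and at 1268 to 1412 in the others. Their part in the values of the lipid genes was not tested.

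**Figure D3:**
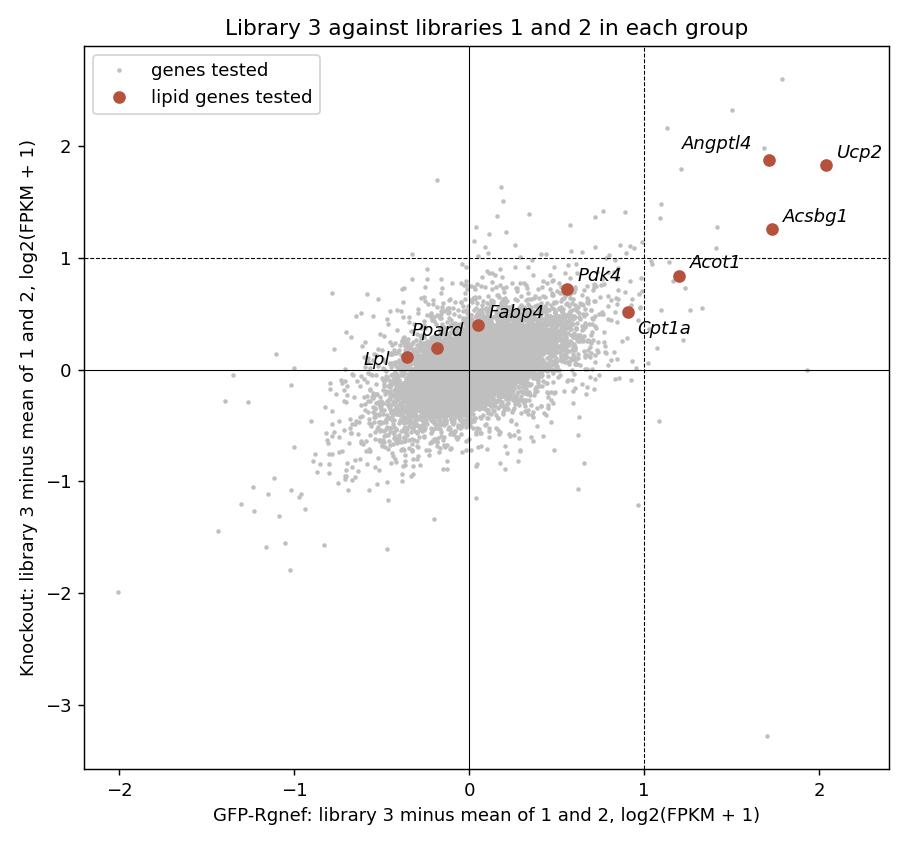
Library 3 minus the mean of libraries 1 and 2 on the log2(FPKM + 1) scale in GFP-Rgnef (horizontal axis) and knockout libraries (vertical axis), with grey points for the 11500 genes tested, red points for the 9 lipid genes tested and dashed lines at 1. Ucp2, Angptl4 and Acsbg1 lie beyond both dashed lines at the upper right, while Lpl lies at -0.35 and 0.11 and Ppard at -0.18 and 0.19.

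Each member that varied by an SD of at least 0.5 on the log2(FPKM + 1) scale was set against 8335 other genes by the root mean square difference of centred log2(FPKM + 1) values over the 6 libraries, a description without a test. For Ucp2 the nearest genes were Acsbg1 (0.25), mt-Nd3 (0.25) and Angptl4 (0.33), where the median gene was at 0.93. For Angptl4 they were mt-Atp6 (0.26), mt-Nd3 (0.28) and Acsbg1 (0.32), and for Acsbg1 they were mt-Nd3 (0.21), mt-Atp6 (0.23) and the troponin gene Tnnt2 (0.23). Acot1 and Pdk4 had other neighbours. Those of Acot1 were Blvrb (0.16), Nqo1 (0.16) and Gsta4 (0.23), which encode a biliverdin reductase, a quinone reductase and a glutathione transferase. Nqo1 had 89.7, 111.9 and 206.6 FPKM with GFP-Rgnef and 41.3, 38.4 and 78.9 in the knockout, so like Acot1 it was lower in the knockout library of each number and higher in library 3. The neighbours of Pdk4 were Akr1c18 (0.15), Htra3 (0.18) and Nqo1 (0.20).

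The wider lipid pathway was followed in 10 lists with 258 distinct genes, the 10 members left out, of which 174 were tested. In the knockout 12 were higher and 20 lower (limma, adjusted p below 0.05), or 18.4%, beside 13.4% of all genes. For the lists below, rose and fell mean called at this level in the fit at hand, and each share called stands beside that 13.4%. The median difference was -0.05, against -0.02 for all genes. Without 1 library the numbers fell to as few as 7 higher (GFP-Rgnef 1 or 2) and 6 lower (GFP-Rgnef 2 or knockout 2), with 8 lower without GFP-Rgnef 1, 11 without knockout 1 and 13 without GFP-Rgnef 3. Calls over all genes dropped too, from 925 to as few as 455 higher and from 614 to as few as 198 lower, both without GFP-Rgnef 2.

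Of 29 tested PPAR target genes 5 fell in the knockout and 0 rose, with a median of -0.14. That is 17.2% called, beside 13.4% of all genes, of which 5.34% were called lower. Cpt2, the inner-membrane partner of Cpt1a, fell from 15.0 ± 1.86 to 9.02 ± 0.468 FPKM (SD, n = 3). Vnn1, a pantetheinase, fell from 45.3 ± 7.13 to 24.4 ± 4.30, and Gpd1, a glycerol phosphate dehydrogenase, from 5.53 ± 0.620 to 2.80 ± 0.660. Me1 and Txnip were the other members that fell. For Cpt2, Vnn1 and Gpd1 limma's adjusted p lay between 0.00543 and 0.0102. The number that fell was 3 without GFP-Rgnef 2, knockout 1 or knockout 2, and 9 without the libraries numbered 3, and with no filter on low values it was 3. Of the 54 target genes listed, 11 were at 0 in every library, Fgf21, Plin1 and Cidec among them, and Cd36 had at most 0.016 FPKM.

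Library 3 was the highest of its group in both groups for 14 of these 29 target genes and for 20 of 37 genes of fatty acid oxidation, next to 26.0% of all genes. Over all 10 lists it was so for 52 of 174 genes, with 3 of 27 for synthesis, 2 of 20 for receptors and coregulators and 0 of 7 for the genes around Lpl and Angptl4. The sizes were smaller than for Ucp2 or Angptl4, with a median of 0.13 with GFP-Rgnef for each list and of 0.10 and 0.12 without, against 0.01 and 0.02 for all genes, and 0 of these genes reached 1 in both groups. Plin2, the coat protein of lipid droplets, had 68.4, 88.5 and 135.7 FPKM with GFP-Rgnef and 59.1, 56.0 and 106.2 in the knockout. Acot2, a mitochondrial thioesterase beside Acot1 on chromosome 12, had 4.60, 4.93 and 9.67 and then 4.28, 2.64 and 6.09. Plin2, Acot2 and Hilpda, a lipid droplet protein gene at 22.4 and 17.6 FPKM in library 3 and 11.4 to 14.3 in the others, were the target genes with the largest differences and were named after their values were seen.

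Among 20 tested receptors, partners and coregulators 2 rose and 1 fell, or 15.0%. Cebpd, a transcription factor of early fat-cell formation, rose from 4.72 ± 1.36 to 10.6 ± 2.84 FPKM (SD, n = 3), but its exons overlap Spidr on the opposite strand. Ncoa1, a nuclear receptor coactivator, rose from 1.25 ± 0.118 to 2.18 ± 0.182, and Hdac3, a corepressor enzyme, fell from a mean of 47.05 to one of 38.6 (SD 1.54). Limma's adjusted p was 0.0201 to 0.0283 for these 3, and each call was lost without GFP-Rgnef 1 (limma adjusted p of 0.0668 to 0.0894), Ncoa1 and Hdac3 also without GFP-Rgnef 2 or knockout 2, Cebpd also without GFP-Rgnef 3 or knockout 1, Ncoa1 without knockout 1 and Hdac3 without knockout 3. The retinoid X receptor genes Rxra and Rxrb stood at 31.6 to 59.5 and at 37.1 to 46.6 FPKM and were not called.

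Of the genes around Lpl and Angptl4 outside the cell, 7 were tested, 1 rose and 0 fell, or 14.3%. Angptl2 rose from 22.4 ± 1.39 to 31.3 ± 2.34 FPKM (SD, n = 3, limma adjusted p = 0.00957), while the proteoglycan gene Sdc1 had 178.2 ± 16.6 and 174.6 ± 7.35. Gpihbp1, the capillary anchor of lipoprotein lipase, was listed at 0 in every library.

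Of 17 genes for uptake, binding and activation of fatty acids 1 rose and 4 fell, or 29.4%. Fabp5, also on chromosome 3, rose from 3.12 ± 0.212 to 11.4 ± 2.93 FPKM (SD, n = 3), a log2 difference of 1.57 (limma adjusted p = 0.00155). Fabp5 thus had the higher level of the pair in both groups, and both were higher in the knockout. Acsf3, a mitochondrial acyl-CoA synthetase, fell from 4.33 ± 0.356 to 2.78 ± 0.359, and Acss2, an acetyl-CoA synthetase whose exons overlap Gss, from 3.15 ± 0.337 to 2.04 ± 0.0924. Slc27a6 and Acsl5 were the others that fell. These calls depended on which libraries were kept. There were 0 left without GFP-Rgnef 1, GFP-Rgnef 2 or knockout 2, 1 without knockout 1 or knockout 3 and 2 without GFP-Rgnef 3. After chromosome medians were removed 1 was left. Over all genes, those called lower went from 614 to 305, 198 and 214 without GFP-Rgnef 1, GFP-Rgnef 2 or knockout 2. The Acsf3 difference was then -0.52, -0.44 and -0.50, against -0.50 with all libraries. For Acss2 it was -0.45, -0.39 and -0.47, against -0.45. Of 9 thioesterases 1 fell and 0 rose, or 11.1%: Acot6, beside Acot1, from 2.73 ± 0.299 to 1.15 ± 0.0794 FPKM (limma adjusted p = 0.00456). The most abundant, Acot7, had 231.5 ± 6.77 and 194.0 ± 16.9 and was not called. Without knockout 3, 3 of the thioesterases fell.

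Of 37 tested genes of fatty acid oxidation 2 rose and 1 fell, or 8.11%, with a median of -0.06. Beside Cpt2, which fell, Etfb on chromosome 7 rose from 67.3 ± 3.42 to 90.8 ± 11.1 FPKM (SD, n = 3) and the peroxisomal enzyme gene Hsd17b4 from 46.7 ± 1.15 to 54.6 ± 0.973. Of these 2 rises, 0 were left without GFP-Rgnef 1, GFP-Rgnef 2 or knockout 2 and 1 without any other single library, and 2 genes fell without knockout 3. After chromosome medians were removed 0 rose and 3 fell. Around Pdk4, 2 of 17 genes of the pyruvate dehydrogenase complex and pyruvate entry fell and 0 rose, or 11.8%. Pcx, pyruvate carboxylase, fell from 8.73 ± 0.164 to 5.64 ± 0.909 FPKM, and Mpc1, of the mitochondrial pyruvate carrier, from 7.60 ± 0.442 to 5.80 ± 0.178 (limma adjusted p = 0.0151 and 0.0366). Neither fell without GFP-Rgnef 1, GFP-Rgnef 2 or knockout 2, and 1 fell without any other single library, with 2 then rising without GFP-Rgnef 3.

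Lipid droplet and lipolysis genes went both ways, with 4 of 26 higher and 2 lower, or 23.1%. Abhd5, the activator of the triglyceride lipase, rose from 12.8 ± 0.367 to 18.2 ± 1.45 FPKM (SD, n = 3) and lies on chromosome 9. After chromosome medians were removed its difference was 0.18 (limma adjusted p = 0.241). Abhd6, a monoacylglycerol lipase, rose from 5.87 ± 0.286 to 9.10 ± 0.732, and Hsd17b11, a lipid droplet enzyme, from 0.247 ± 0.0560 to 1.37 ± 0.319. Hsd17b11 reached the mean of 0.5 FPKM needed for the test through its knockout libraries alone, and such a filter favours a rise. Agpat2 rose too, and Dgat1 and Lpin2 fell, with 0 falling without GFP-Rgnef 1, GFP-Rgnef 2 or knockout 2 and 1 without GFP-Rgnef 3 or knockout 3.

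In fatty acid synthesis, elongation and desaturation 2 of 27 rose and 3 fell, or 18.5%. Fads6 fell from 7.19 ± 0.468 to 4.08 ± 0.385 FPKM (SD, n = 3) and Mecr, of mitochondrial fatty acid synthesis, from 37.3 ± 3.26 to 26.1 ± 0.962. The elongase gene Elovl5 on chromosome 9 rose from 81.1 ± 4.92 to 108.7 ± 5.10, and its difference after chromosome medians were removed was 0.13 (limma adjusted p = 0.319). Me1 was the third that fell and Mid1ip1 the other that rose. Without any 1 library other than knockout 3, 1 gene rose, and 2 fell without GFP-Rgnef 2, knockout 1 or knockout 2.

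Of 11 uncoupling proteins and related carriers 3 fell and 0 rose, or 27.3%. Ucp1 was listed at 0 and Ucp3, the neighbour of Ucp2, had at most 0.032 FPKM. Slc25a13 fell from 56.2 ± 4.10 to 44.5 ± 3.10 FPKM (SD, n = 3), Slc25a10 from 96.2 ± 2.44 to 81.6 ± 2.77 and Slc25a27 from 2.16 ± 0.191 to 1.32 ± 0.199. Their limma adjusted p was 0.0326 to 0.0429. With 1 library left out at most 1 of them fell, namely without GFP-Rgnef 3 or knockout 3, and 0 without the others. After chromosome medians were removed 0 fell. In library 3 their differences from the mean of 1 and 2 ran from -0.31 to 0.21 over both groups, where Ucp2 had 2.04 and 1.83.

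**Figure D4:**
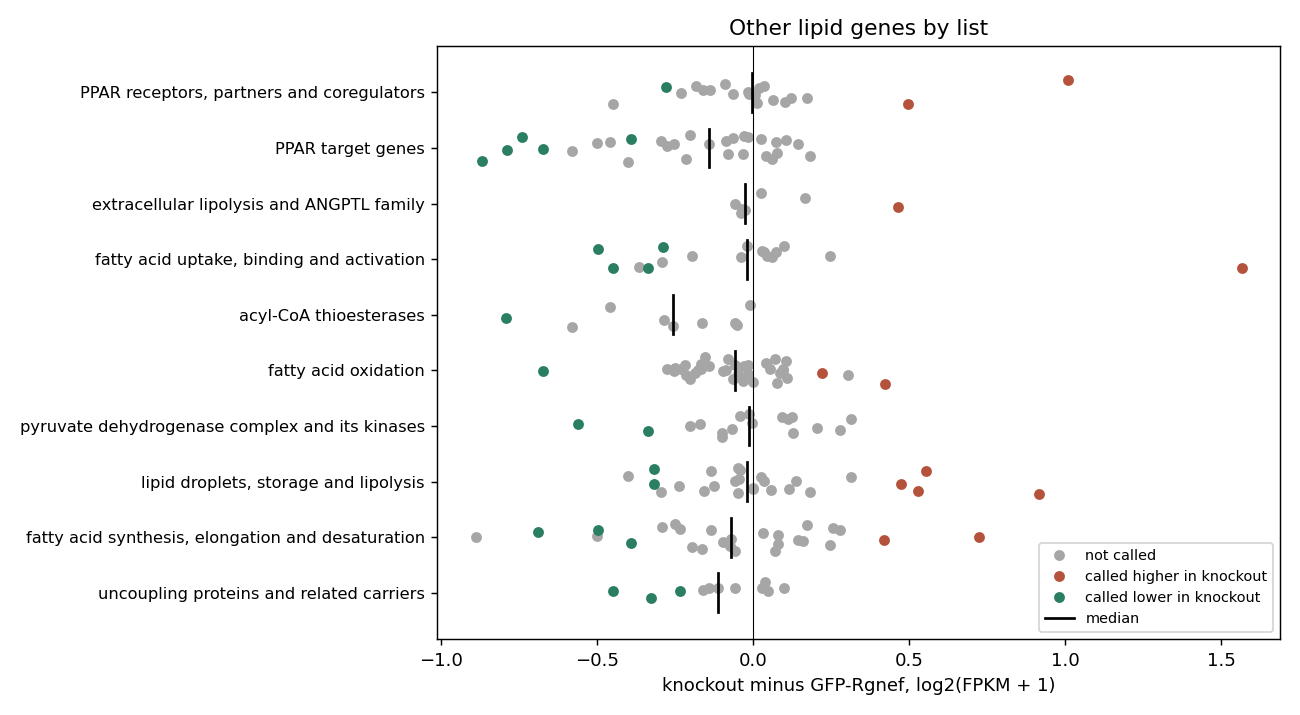
Knockout minus GFP-Rgnef on the log2(FPKM + 1) scale (horizontal axis) for the tested genes of the 10 lists, with red for genes called higher, green for genes called lower, grey for genes not called and a black bar for the median. A gene has 1 point in each list that holds it. The medians lie between -0.26 for the thioesterases and -0.004 for the receptors, and the point farthest to the right is Fabp5.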

How the data were processed

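Messenger RNA of the 6 libraries was enriched on poly-T beads, per the labels' protocols. FPKM values for 35275 genes were deposited by the authors as a single table. The submitters' processing notes name CASAVA 1.8, TopHat2 2.0.9, DESeq2 and the build mm10. The roles of these tools, the annotation and the use of strand are not given in the sources used here. Gene symbols were looked up in GENCODE M release 21 on GRCm38, the assembly of mm10, where 34490 genes matched.

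Whole reads could be recovered. Of 19655 genes with any signal, all had a length at which their values became whole reads within 0.02, namely the mean length of its annotated transcripts for 11410 genes and, for 8128, the smallest length that did so. FPKM was thus scaled by reads counted in genes. Counting error is relatively larger for genes of few reads, and counting intervals cover that error alone.

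Differences in log2 of the deposited FPKM + 1 were tested with limma 3.58.1 (trend on, R 4.3.3) over the 11500 genes with a mean of at least 0.5 FPKM, two-sided, with Benjamini-Hochberg adjustment over all of them. The pseudocount understates changes of low genes. The script was run on simulated data with 200 changed genes and libraries drawn independently. That run held no shared shift of the libraries numbered 3, so it does not show how the fit behaves with one. The members and lists were chosen with earlier results of these data known. All members are named, and from each list up to 3 called genes with the smallest p, filled to 2 with the most abundant. The 3 nearest genes were named for members with an SD of at least 0.5. Other genes are named where stated, or to complete a count, and were chosen after their values were seen. Alternatives covered the pseudocount, filter, scaling, variance model, a block for the replicate number, leaving out single libraries or both libraries numbered 3, removal of chromosome medians, and limma's voom on recovered reads.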

Additional observations from a re-analysis of the deposited data

How the results depend on the processing

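Lpl and Pdk4 kept their direction and call in every alternative run, and Fabp4 lost its call without 1 of 3 libraries. At a mean of at least 5 FPKM, where Fabp4 is not tested, 1 member was higher. Without the libraries numbered 3, the members lower were 3 (Pdk4, Acot1 and Angptl4). With 1 library left out, 1 to 2 members were higher and 1 to 2 lower. Differences of Ucp2, Acsbg1, Angptl4 and Cpt1a, which were not called, changed sign. After chromosome medians were removed they were -0.056 for Ucp2, -0.19 for Acsbg1 and 0.024 for Cpt1a, and 0.0089 for Sdc1. With 1 library left out they ranged from -0.42 to 0.87 for Ucp2, -0.32 to 0.68 for Acsbg1, -0.98 to 0.22 for Angptl4, -0.22 to 0.27 for Cpt1a and -0.104 to 0.026 for Sdc1, and without the libraries numbered 3 Cpt1a was at 0.10. The cause was not tested. Angptl4, Ucp2 and Acsbg1 remained at least 1 higher in library 3 of both groups with a pseudocount of 0.1, with median-of-ratios scaling and after chromosome medians were removed.

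Over all genes, 495 were higher and 388 lower after chromosome medians were removed, 394 lower with no filter and 1048 lower without the libraries numbered 3. With 1 library left out, 455 to 850 were higher and 198 to 578 lower. Limma's voom on the recovered reads called 994 higher and 576 lower. Of the other lipid genes, 7 were higher and 13 lower after chromosome medians were removed and 10 lower with no filter. With 1 library left out, 7 to 11 were higher and 6 to 16 lower. Of 24 called genes named from the lists, 10 kept their call in every alternative in which they were tested, and 14 lost it in at least 1. Among the 10, Hsd17b11, Acot6 and Gpd1 had a mean below 5 FPKM and were not tested at that filter.

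The replicate numbers were not treated as pairs. Deviations from the group means correlated at 0.32 for the libraries numbered 1, -0.02 for those numbered 2 and 0.55 for those numbered 3, and not every library correlated best with its own number. With the replicate number as a block, 1517 genes were higher and 1253 lower, 35 other lipid genes were lower, among them 12 PPAR target genes in place of 5, and the members lower were 3, Acot1 and Angptl4 beside Pdk4. For genes of few reads, such as Fabp4 and Pparg, depth limits what can be told.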
